A study of Mus musculus with 12 samples.

Results

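Hearts of mice that had just completed a pregnancy on a control diet were compared with hearts of mice that had eaten a Western diet and had not been pregnant. The comparison used the 3 libraries titled CD-PP and the 3 titled WD-AM, 6 of the 12 heart libraries of the study, and all 15476 genes that passed a filter on low counts. All mice were wild-type females of strain C57BL/6J. The control diet (D12450K) supplied 10% of its energy as fat, and the Western diet (D12451) supplied 45% as fat and 17% as sucrose. After 15 weeks on a diet, mice were assigned at random to breeding or stayed unbred on the same diet. The control diet postpartum hearts were taken 1 day after delivery and the Western diet nonpregnant hearts at the same age, 27 to 29 weeks. The remaining groups, 3 libraries each of control diet nonpregnant and Western diet postpartum hearts, served as references. The study asked whether metabolic disease brought on by the diet alters how the heart remodels in pregnancy.

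Pregnancy is a volume load that enlarges the heart for a limited time, and the load ends at delivery. The heart wall then holds more myocyte mass and a matrix of collagens, fibronectin and crosslinking enzymes that is made mainly by fibroblasts. A diet rich in fat raises the supply of fatty acids to the heart, which act as ligands of the nuclear receptor PPAR alpha. That receptor switches on genes for the uptake, activation, oxidation and export of fatty acids.

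Diet and pregnancy both differed between the groups compared, so each value is the effect of pregnancy minus the effect of diet, and the 2 cannot be told apart within it. Nothing in the labels ties each library to an animal of its own, so a p-value speaks only for the spread among libraries, which may be technical. Running numbers in the titles place every postpartum library ahead of every nonpregnant one, and this order and pregnancy cannot be told apart. Total counts were 25611052 to 29492416 in the postpartum and 22978995 to 28398335 in the Western diet libraries. A count of 0 allows up to 0.102 to 0.131 CPM (counts scaled for library size), for counting error only. The myocyte myosin Myh6 stood at 29119 to 36711 CPM in all 12 libraries, while the atrial genes Sln, Myl7 and Bmp10 stayed at or below 0.428 CPM. They belong to a list of 11 atrial genes, of which 8 passed the filter, Nppa among them. The summed level of this list was 870.7 to 963.5 CPM in postpartum and 749.2 to 860.1 CPM in Western diet hearts. The part of atrial RNA in the values below was not tested. One postpartum library, control diet postpartum replicate 3, carried fat genes: the brown fat uncoupler Ucp1 stood at 73.1 CPM there and at no more than 0.545 CPM elsewhere, and the adipocyte hormone Adipoq at 19.6 against at most 0.543 CPM. In RNA from heart tissue, fewer cells of a type and less RNA per cell cannot be told apart.

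The postpartum hearts had more RNA of 9 matrix genes, of the natriuretic peptide Nppa and of the glycogen-binding protein Stbd1. They had less of the lectin Lgals4, of the sodium channel subunit Scn4b and of 3 genes for fatty acid handling. With edgeR's quasi-likelihood test and Benjamini-Hochberg adjustment over all genes, 90 genes differed at an adjusted p under 0.05 (0.582% of those tested). Of these 44 were higher (0.284%) and 46 lower (0.297%) in postpartum hearts. At least a 2-fold difference was found for 9 of the higher and 6 of the lower genes. The groups did not overlap in CPM for any of the 90, while 21.5% of all genes tested had groups without overlap. An unadjusted p under 0.05 was found for 2163 of the 15476 genes tested. Over the same genes DESeq2 called 319 and limma-voom 84. Counts of list members given below are to be read beside these numbers.

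How many genes passed rested on single libraries. Without control diet postpartum replicate 1, 2 or 3, edgeR called 19, 83 or 18 genes, of which 18, 55 and 17 were among the 90. Without Western diet nonpregnant replicate 1, 2 or 3, it called 55, 10 or 9, of which 45, 10 and 9 were among the 90. The direction of each of the 90 genes held in every alternative that tested it. Lgals4, Stbd1, Scn4b, Ndrg4 and Dbn1 passed in all 16 alternatives, and mt-Te passed wherever it was tested, since 1 alternative removed mitochondrial genes. A call named below that is not one of these 6 was lost when at least 1 library was left out.

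Lgals4, a galectin best known from the gut epithelium, had the smallest p of the lower genes (chromosome 7, 28833854 to 28841708, plus strand, GRCm38). It stood at 26, 36.8 and 29.3 CPM in the 3 postpartum libraries and at 88.2, 95.1 and 78.3 CPM in the Western diet libraries. The groups were far apart, with the highest postpartum library below the lowest Western diet library. The log2 fold change was -1.51 (SE 0.16, adjusted p = 0.00255). The control diet nonpregnant libraries lay between them, at 54.5, 59.2 and 74.1 CPM. Against these, postpartum hearts on the control diet were lower, with a log2 fold change of -1.03 (adjusted p = 0.0317), while Western diet nonpregnant hearts stood at 0.48 (adjusted p = 0.362).

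Scn4b, a beta subunit of the cardiac sodium channel, followed another course (chromosome 9, 45138395 to 45154152). Its levels were 42.4, 41.9 and 47.4 CPM in postpartum and 79.1, 82.5 and 107 CPM in Western diet hearts, again without overlap. The log2 fold change was -1.03 (SE 0.12, adjusted p = 0.00255). The control diet nonpregnant libraries, at 45.7, 48.7 and 53.6 CPM, were close to the postpartum ones. Their own tests gave -0.17 (adjusted p = 0.60) for pregnancy on the control diet and 0.86 (adjusted p = 0.0363) for the Western diet without pregnancy. Scn4b was the only called member among 30 listed ion channel and gap junction genes, and their median log2 fold change was 0.10, against 0.0005 over all genes. The gap junction protein Gja1 stood at 0.38 (adjusted p = 0.15). Scn4a, the sodium channel of skeletal muscle, was in no list and was also lower, at 28.8, 28.7 and 30.1 against 37.9, 41.2 and 47.7 CPM (-0.53, adjusted p = 0.0204).

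Stbd1, which binds glycogen and links it to lysosomes, led the higher genes (chromosome 5, 92603041 to 92606579). It stood at 17.9, 15.4 and 16 CPM in postpartum and 9.28, 9.66 and 8.59 CPM in Western diet hearts. The log2 fold change was 0.84 (SE 0.09, adjusted p = 0.00255), and control diet nonpregnant hearts, at 8.95 to 10.9 CPM, lay with the Western diet ones. Dbn1, the actin-binding protein drebrin, showed the same order, with 14.5, 15.3 and 13.0 CPM against 8.29, 8.71 and 9.19 CPM (log2 fold change 0.70, SE 0.09, adjusted p = 0.0066). In control diet nonpregnant hearts it was at 8.62 to 9.68 CPM. For both genes it was the postpartum group that stood away from the reference.

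Ndrg4, a cytoplasmic protein needed for myocyte growth in the developing heart, differed in another way. Postpartum libraries held 361, 375 and 305 CPM and Western diet libraries 202, 226 and 203 CPM, with no overlap (log2 fold change 0.73, SE 0.09, adjusted p = 0.00473). Control diet nonpregnant libraries, at 269 to 332 CPM, were near the postpartum level, and Western diet nonpregnant hearts were lower than these, with a log2 fold change of -0.56 (adjusted p = 0.0499). Western diet postpartum hearts were also lower than the reference (-0.39, adjusted p = 0.0376). Lgi3, a secreted leucine-rich repeat protein, had a like order at low levels, with 2.95 to 4.05 CPM in postpartum and 1.36 to 1.72 CPM in Western diet hearts (log2 fold change 1.16, adjusted p = 0.013).

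**Figure D1:**
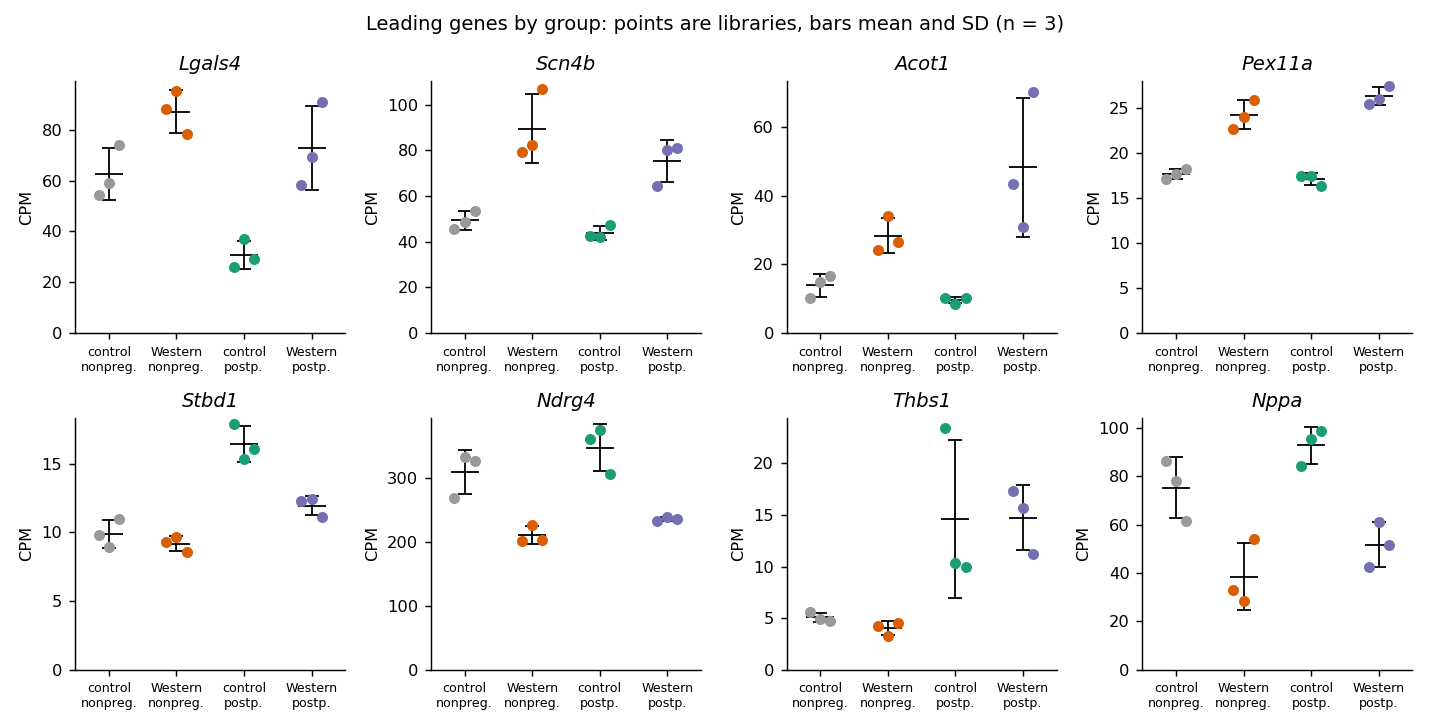
CPM of 8 genes in the 4 groups, with each point a library and bars for the mean and SD of 3 libraries. Lgals4 and Stbd1 in control diet postpartum hearts stand away from the other groups, while Scn4b, Acot1, Pex11a and Ndrg4 there stand near the control diet nonpregnant level.

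Of the gene lists, the matrix genes held the most called members. Of 48 collagen and matrix genes listed, 47 passed the filter, and 9 of these were called higher and 0 lower in postpartum hearts. Their median log2 fold change was 0.40, 42 were above 0, and 27 did not overlap upward against 10.8% of all genes. DESeq2 called 20 and limma-voom 8 of them, against 319 and 84 of all 15476 genes. The number called fell to 2, 1, 2, 1 and 0 without control diet postpartum replicate 1 or 3 and without Western diet nonpregnant replicate 1, 2 or 3. Named members beyond the 4 with the smallest p were chosen after their values were seen.

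Thbs1, the matricellular protein thrombospondin 1 that activates TGF beta, had the largest difference of the called matrix genes. It stood at 23.4, 10.4 and 9.97 CPM in postpartum and 4.21, 3.26 and 4.58 CPM in Western diet hearts. The first postpartum library was above the other 2 by more than their distance to the Western diet group. The log2 fold change was 1.86 (SE 0.30, adjusted p = 0.0159), and 1.34 without that library. Thbs1 failed the threshold with edgeR's robust option and without Western diet nonpregnant replicate 2 or 3. Tenascin C (Tnc), a matrix glycoprotein of tissue repair, stood at 2.59, 2.91 and 4.68 CPM against 1.12, 1.21 and 1.06 CPM (log2 fold change 1.59, adjusted p = 0.0204). Both genes were also higher in Western diet postpartum than in control diet nonpregnant hearts, by 1.53 for Thbs1 (adjusted p = 0.0182) and 1.58 for Tnc (adjusted p = 0.012).

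Enzymes that process collagen were called as well. The crosslinking lysyl oxidase Loxl1 stood at 51.2, 44.4 and 46.4 CPM in postpartum and 31.3, 35.6 and 36.0 CPM in Western diet hearts (log2 fold change 0.46, adjusted p = 0.019). Its relative Loxl2 stood at 18.5 to 28.4 against 10.5 to 14.1 CPM (0.97, adjusted p = 0.0204). Adamts2, which trims procollagen, stood at 30.0 to 31.8 against 18.7 to 24.7 CPM (0.52, adjusted p = 0.0204). All 3 sets of libraries were separate.

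The structural members called were fibronectin (Fn1), the collagen V chain Col5a2, the microfibril protein fibrillin 1 (Fbn1) and the proteoglycan versican (Vcan). Fn1 stood at 56.7, 54.2 and 60.3 CPM in postpartum and 37.5, 35.2 and 38.9 CPM in Western diet hearts (log2 fold change 0.62, adjusted p = 0.0306). The others differed by 0.62 for Col5a2, 0.65 for Vcan and 0.77 for Fbn1, and Fbn1 was near the threshold (adjusted p = 0.0497) and lost its call in 12 of the 16 alternatives, limma-voom and edgeR's robust option among them. The main fibrillar collagens did not pass. Col1a1 stood at 0.65 (adjusted p = 0.0794) and Col3a1 at 0.87 (adjusted p = 0.138), with 313, 197 and 373 CPM of Col3a1 in postpartum and 139, 188 and 156 CPM in Western diet hearts. Periostin (Postn), a marker of activated fibroblasts, stood at 0.72 (adjusted p = 0.0829), and the protease inhibitor Timp1 at 0.90 (adjusted p = 0.213).

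**Figure D2:**
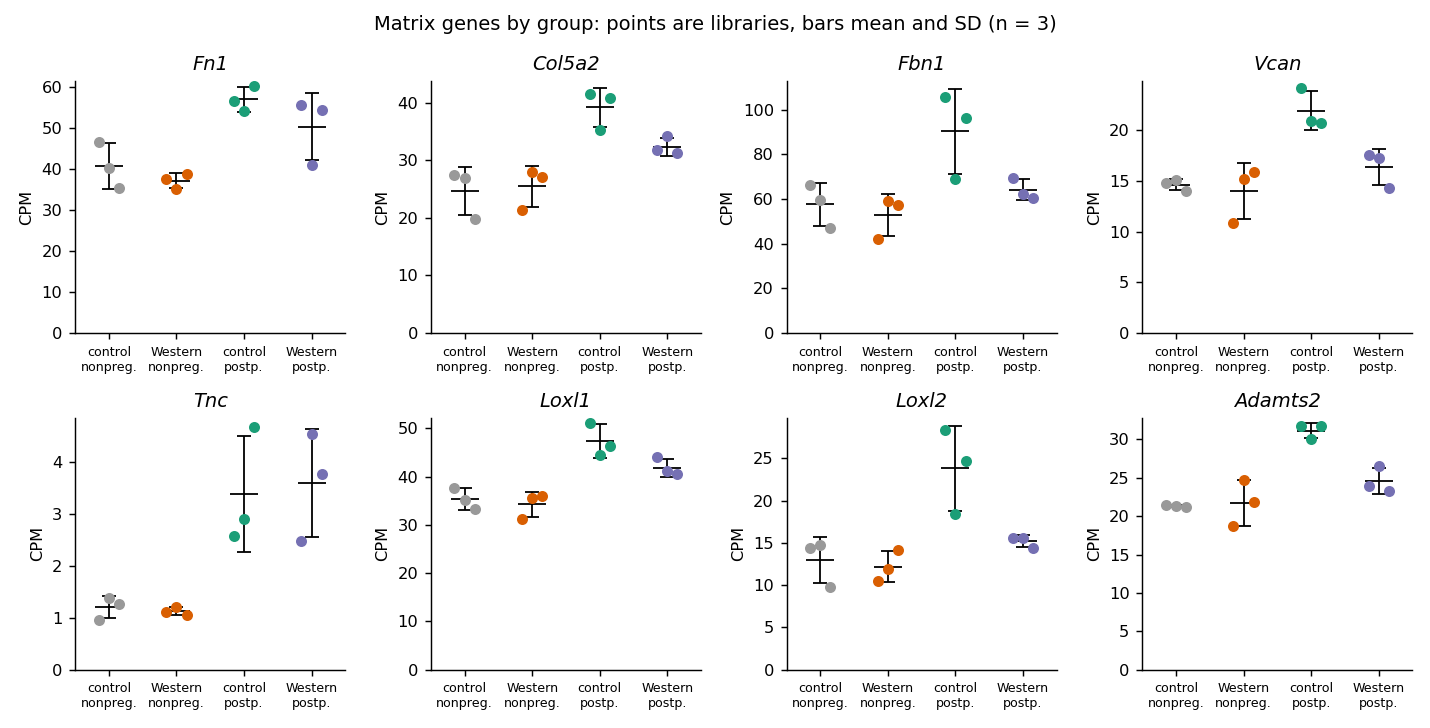
CPM of 8 matrix genes called in the comparison, with each point a library and bars for the mean and SD of 3 libraries. Control diet postpartum libraries are above all Western diet nonpregnant libraries in every panel, and Tnc is as high in Western diet postpartum hearts (2.49 to 4.55 CPM).

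Other fibroblast products were higher too, among them Fstl1, a secreted glycoprotein (113 to 124 against 74.5 to 77.5 CPM, log2 fold change 0.65, adjusted p = 0.013), and Cd248, a surface protein of stromal cells (0.78, adjusted p = 0.019). None of the 15 fibroblast markers listed was called, while DESeq2 called 4 (3 higher, 1 lower) and limma-voom 0. An unadjusted p under 0.05 was found for 6 (5 higher, 1 lower). Groups did not overlap upward for 5 (33.3%, against 10.8% of all genes) and downward for 1 (6.67%, against 10.7%). The summed level of these markers was 2838 to 3004 CPM in postpartum and 2690 to 3001 CPM in Western diet hearts. The part of fibroblast number in the matrix values was not tested. The summed level was lower, 2243 to 2745 CPM, in control diet nonpregnant hearts.

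Of the macrophage genes, 2 macrophage genes were higher. Pf4, a chemokine of platelets and resident macrophages, stood at 14.1, 13.9 and 14.5 CPM in postpartum and 11.1, 9.35 and 9.50 CPM in Western diet hearts (log2 fold change 0.51, adjusted p = 0.0204). Cd68, a lysosomal protein of macrophages, stood at 10.4, 10.1 and 12.6 against 7.51, 7.08 and 6.09 CPM (0.68, adjusted p = 0.0385). These were the 2 called of 19 listed macrophage genes (10.5%, against 0.582% of all genes), and 15 of the 19 were above 0. Groups did not overlap upward for 7 (36.8%, against 10.8% of all genes) and downward for 1 (5.26%, against 10.7%). The summed level of the list was 459.7 to 508.7 CPM in postpartum and 364.2 to 443.4 CPM in Western diet hearts. The monocyte receptor Ccr2 stood on the other side at -0.54 (adjusted p = 0.21). The part of macrophage number in these values was not tested.

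Some of the remaining higher genes encode proteins of the cytoskeleton, and they formed no list. Other genes of this kind were called lower, among them Kank3, given below, and the actin-binding Ablim3 (log2 fold change -0.51, adjusted p = 0.0204). Dpysl3, which regulates actin and microtubules, stood at 37.4 to 40.9 against 24.2 to 29.1 CPM (log2 fold change 0.56, adjusted p = 0.013). Cotl1, a coactosin that binds filamentous actin, stood at 16.7 to 17.6 against 10.6 to 12 CPM (0.64, adjusted p = 0.0136). Cofilin (Cfl1), the GTPase Rhoc and the tubulins Tubb6 and Tubb3 were called with 0.32, 0.43, 0.51 and 1.43, and these 4 were picked after their values were seen. The kinase Akt1, a hub of insulin and growth signalling, stood at 214, 216 and 242 against 171, 180 and 177 CPM (0.35, adjusted p = 0.0477). Foxo3, a transcription factor that Akt1 holds out of the nucleus, was lower, at 110, 103 and 94.4 against 130, 163 and 133 CPM (-0.47, adjusted p = 0.0389). Akt1 and Foxo3 were the 2 members called of 31 genes of insulin and growth signalling, whose median was 0.04. Akt1 failed the threshold whichever library of the groups compared was left out. Foxo3 failed it when any of these but Western diet nonpregnant replicate 1 was left out, and in a fit of only the groups compared.

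Nppa encodes atrial natriuretic peptide, a hormone of stretched myocytes (chromosome 4, 148000722 to 148002079). It stood at 84.4, 95.5 and 98.9 CPM in postpartum and 33.0, 28.5 and 54.3 CPM in Western diet hearts. The groups were separate, and the log2 fold change was 1.26 (SE 0.20, adjusted p = 0.0159). The control diet nonpregnant libraries, at 61.6 to 86.3 CPM, lay near the postpartum ones, and Western diet postpartum libraries were at 42.3 to 61.0 CPM. The tests against the reference gave 0.30 (adjusted p = 0.566) for pregnancy on the control diet and -0.96 (adjusted p = 0.142) for Western diet without pregnancy. Nppa failed the threshold with edgeR's robust option and without control diet postpartum replicate 3 or Western diet nonpregnant replicate 1 or 2.

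Nppb, the related B-type peptide, did not pass, at 166, 288 and 297 against 85.1, 67.6 and 128 CPM (log2 fold change 1.42, adjusted p = 0.161). Its libraries did not overlap but spread widely within each group. Nppa was the only called gene of the fetal and hypertrophic program, of which 17 of 22 members passed the filter, with a median of 0.19. DESeq2 called 4 of the 17 (3 higher, 1 lower), and 6 did not overlap upward (35.3%, against 10.8% of all genes). The fetal myosin Myh7 stood at -0.22 (adjusted p = 0.135), the adult myosin Myh6 at 0.12 (adjusted p = 0.421) and skeletal actin Acta1 at -0.41 (adjusted p = 0.694). None of the 27 sarcomere and calcium handling genes was called, 4 had an unadjusted p under 0.05, and DESeq2 called 1 and limma-voom 0. Groups did not overlap upward for 11.1% of these and downward for 11.1%, near the 10.8% and 10.7% of all genes.

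Of 45 genes of fatty acid oxidation and other PPAR alpha targets, 42 passed the filter. Called as lower in postpartum hearts were 3, Pex11a, Acot1 and Slc27a1, and 0 were higher. All 42 had a negative log2 fold change, with a median of -0.26. Groups did not overlap downward for 30 of the 42, against 10.7% of all genes. DESeq2 called 9 and limma-voom 3, against 319 and 84 of all 15476 genes. The number called by edgeR was 1, 1, 1 and 0 without control diet postpartum replicate 1 or 3 and Western diet nonpregnant replicate 2 or 3.

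The promoters of 4 members are shown because the 42 values share a sign and PPAR alpha binds repeats of one half-site, AGGTCA. They are the 250 bases before the annotated start, read 5′ to 3′ on the gene's strand, from RefSeq on GRCm38.p6. Capitals mark AGGTCA, searched on both strands. Acot1 lies at chr12:84009252-84009501 (plus), Pex11a at chr7:79743132-79743381 (minus), Ucp3 at chr7:100472741-100472990 (plus) and Cat at chr2:103485154-103485403 (minus).
Acot1: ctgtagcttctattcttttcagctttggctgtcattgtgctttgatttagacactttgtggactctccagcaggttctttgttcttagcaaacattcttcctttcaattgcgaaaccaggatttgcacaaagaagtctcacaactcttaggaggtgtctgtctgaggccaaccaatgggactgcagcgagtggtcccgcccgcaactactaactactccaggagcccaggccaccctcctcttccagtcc
Pex11a: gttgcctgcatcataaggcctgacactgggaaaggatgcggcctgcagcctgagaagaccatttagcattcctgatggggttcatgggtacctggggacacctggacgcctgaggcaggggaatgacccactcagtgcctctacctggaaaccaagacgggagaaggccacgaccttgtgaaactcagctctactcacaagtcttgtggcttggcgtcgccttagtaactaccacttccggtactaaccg
Ucp3: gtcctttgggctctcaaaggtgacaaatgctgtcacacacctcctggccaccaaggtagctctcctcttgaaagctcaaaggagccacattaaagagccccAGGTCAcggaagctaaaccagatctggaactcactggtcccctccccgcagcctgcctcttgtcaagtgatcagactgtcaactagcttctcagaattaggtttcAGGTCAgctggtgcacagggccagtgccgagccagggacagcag
Cat: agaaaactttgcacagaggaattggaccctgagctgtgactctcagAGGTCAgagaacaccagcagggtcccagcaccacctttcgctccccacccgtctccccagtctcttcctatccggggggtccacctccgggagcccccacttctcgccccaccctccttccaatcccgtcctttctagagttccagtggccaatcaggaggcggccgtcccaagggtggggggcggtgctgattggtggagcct
The called genes Acot1 and Pex11a held no match in this window, while Ucp3, the mitochondrial uncoupling protein of muscle, held 2 and catalase (Cat), which breaks down peroxide, held 1. Ucp3 and Cat were not called. The called gene Slc27a1, not shown, was not among the listed genes with a match. The 4 promoters were picked, so the share of them with a match does not stand for the list. On both strands, AGGTCA was found for 9 of the 34 listed genes with a promoter in the table (26.5%) and for 15.8% of all 27025 genes. The paired form, 2 copies of AGGNCA with 1 base of any kind between them, can overlap the half-site and was in none of the 34 and in 0.4% of all genes. These matches are a description of the letters only.

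Acot1, a cytosolic thioesterase that releases free fatty acids from coenzyme A, stood at 10.1, 8.57 and 10.1 CPM in postpartum and 24.3, 34.0 and 26.6 CPM in Western diet hearts. The groups were well apart, with a log2 fold change of -1.56 (SE 0.26, adjusted p = 0.019). Acot1 failed the threshold with edgeR's robust option, and also when Western diet nonpregnant replicate 2 or 3 or control diet postpartum replicate 1 or 3 was left out. Its close copy Acot2 next to it on chromosome 12 stood at -0.82 (adjusted p = 0.0707), and reads could be split between them. Control diet nonpregnant hearts held 10.2 to 16.6 CPM of Acot1, and Western diet postpartum hearts 31.0 to 70.3 CPM.

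Pex11a, which divides peroxisomes, stood at 17.5, 17.5 and 16.4 CPM in postpartum and 22.8, 24.1 and 26 CPM in Western diet hearts (log2 fold change -0.50, SE 0.07, adjusted p = 0.00903). Control diet nonpregnant hearts, at 17.1 to 18.2 CPM, matched the postpartum range closely. Their own comparisons gave -0.05 (adjusted p = 0.847) for pregnancy on the control diet and 0.46 (adjusted p = 0.0423) for Western diet without pregnancy. Slc27a1, a fatty acid transporter of the plasma membrane, stood at 161, 185 and 167 against 261, 278 and 235 CPM (-0.59, adjusted p = 0.0204).

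Some PPAR alpha targets that did not pass are given for their levels in each library. Angptl4, a secreted inhibitor of lipoprotein lipase, stood at 3.47, 3.33 and 2.89 against 7.86, 10.5 and 21.0 CPM (log2 fold change -2.03, adjusted p = 0.115). Ucp3 stood at 37.3, 28.0 and 29.0 against 85.4, 73.5 and 96.7 CPM (-1.44, adjusted p = 0.116). Both had groups without overlap and did not pass. Pdk4, a kinase that shuts off pyruvate oxidation, was separate by a narrow margin, at 353, 169 and 189 against 376, 530 and 587 CPM (-1.07, adjusted p = 0.259), and Cpt1b, the muscle carnitine transferase, stood at -0.24 (adjusted p = 0.342).

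Other lower genes were in no list. Mttp, which loads lipid onto lipoproteins, stood at 6.17 to 6.78 against 9.28 to 12.3 CPM (log2 fold change -0.78, adjusted p = 0.013). Xdh, xanthine dehydrogenase of purine breakdown, stood at 90.5, 101 and 88.7 against 148, 201 and 158 CPM (-0.85, adjusted p = 0.013). Adh1, an alcohol and retinol dehydrogenase, stood at 9.71 to 13.1 against 17.5 to 20.6 CPM (-0.76, adjusted p = 0.013), and the retinal dehydrogenase Aldh1a1 at -0.55 (adjusted p = 0.0204). Adh1 and Aldh1a1 were higher in Western diet nonpregnant than in control diet nonpregnant hearts, by 0.82 (adjusted p = 0.0363) and 0.61 (adjusted p = 0.0423). The glycerol channel Aqp7 (-0.69), the muscle fructose bisphosphatase Fbp2 (-0.77) and the inhibitor of metalloproteases Timp4 (-1.10) were also called and were chosen here after their values were seen.

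Of the remaining lower genes, Bdnf, a neurotrophin, stood at 5.55 to 7.24 against 11.6 to 12.5 CPM (log2 fold change -0.90, adjusted p = 0.013). Kank3, an actin regulator of endothelium, stood at 48.9 to 56.3 against 69.7 to 77.1 CPM (-0.46, adjusted p = 0.013). Dock9, an activator of Cdc42, stood at -0.38 (adjusted p = 0.0136), and Timeless, a replication fork protein, at -0.68 (adjusted p = 0.0136). Ramp2, the partner of the adrenomedullin receptor in endothelium, stood at 28.6 to 29.5 against 36.6 to 39.8 CPM (-0.39, adjusted p = 0.0204). Ramp2 was the only called gene of 30 for angiogenesis and vasoactive signals, and Vegfa stood at -0.01 (adjusted p = 0.977). Summed endothelial markers were 1928 to 2042 CPM in postpartum and 2019 to 2278 CPM in Western diet hearts, and their part in these values was not tested.

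Mitochondrial transcripts took 19.2% to 19.4% of counts in postpartum and 20.4% to 21.2% in Western diet hearts. Of 13 mitochondrially encoded proteins, mt-Nd6, a subunit of complex I, was called as lower (4355, 4900 and 4817 against 6166, 6259 and 6509 CPM, log2 fold change -0.43, adjusted p = 0.019). The transfer RNA gene next to it, mt-Te, stood at 199, 223 and 207 against 296, 316 and 298 CPM (-0.53, adjusted p = 0.0027). Both groups of libraries were separate. mt-Nd6 (13552 to 14070) and mt-Te (14071 to 14139) adjoin on the minus strand of the mitochondrial genome, and the strand setting of the counting is not given, so reads of the opposite strand cannot be told apart from theirs. The other 12 proteins did not pass with edgeR, and the list had a median of -0.16. Of the 13, 7 had an unadjusted p under 0.05, 9 did not overlap downward (69.2%, against 10.7% of all genes), and DESeq2 called 4 and limma-voom 1. None of the 40 nuclear genes of the respiratory chain was called or reached an unadjusted p under 0.05, DESeq2 and limma-voom called 0, and their median was 0.02. None of the 32 genes of glucose use and glycolysis was called (8 with unadjusted p under 0.05, 0 by DESeq2 and limma-voom), and their median was 0.04. Groups did not overlap upward for 7 of the 32 (21.9%, against 10.8% of all genes) and downward for 2 (6.25%, against 10.7%). Slc2a4, the insulin-regulated glucose transporter, stood at 0.04.

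**Figure D3:**
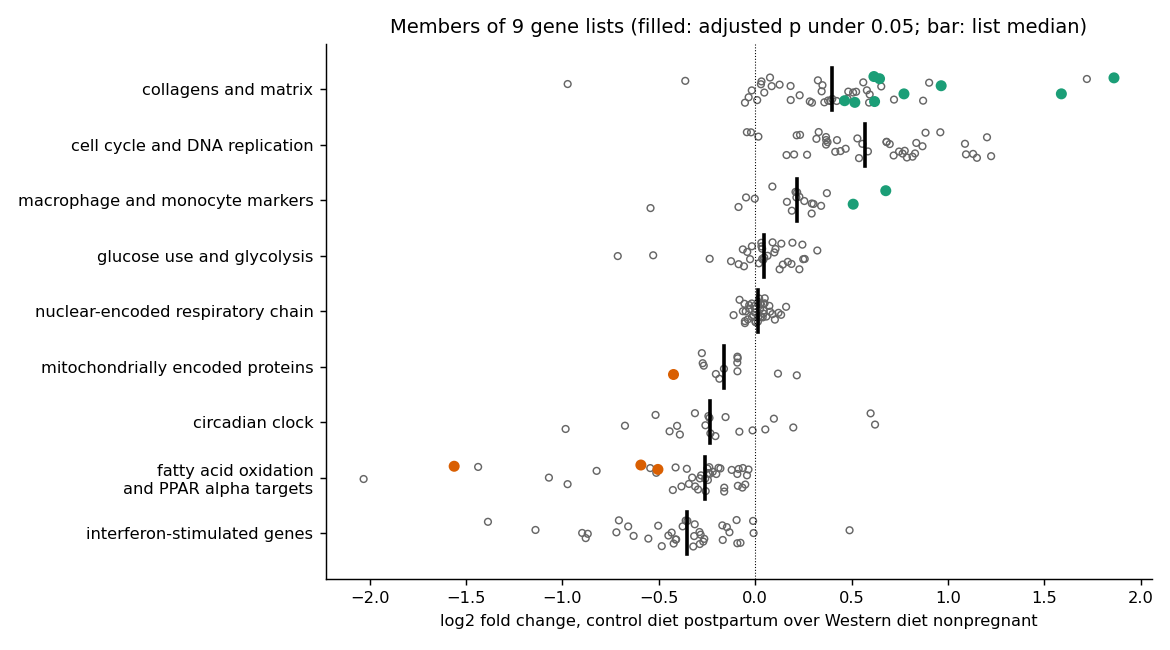
Log2 fold change of each tested member of 9 gene lists, control diet postpartum over Western diet nonpregnant, with filled points for genes called and a bar at the list median. Matrix genes centre on 0.40, cell cycle genes on 0.57, fatty acid oxidation genes on -0.26 and interferon-stimulated genes on -0.36, against 0.0005 for all genes.

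Cell cycle, interferon-stimulated and clock genes had no called member. Cell cycle and DNA replication genes had a median of 0.57, with 40 of 42 above 0 and 20 without overlap upward (47.6%, against 10.8% of all genes). An unadjusted p under 0.05 was found for 18, DESeq2 called 2 and limma-voom 0. The G1 cyclin Ccnd1 stood at 85.5, 83.2 and 88.5 against 60.7, 45.7 and 65.0 CPM (log2 fold change 0.59, adjusted p = 0.0884), and the topoisomerase Top2a at 12.8, 5.47 and 6.92 against 3.31, 3.33 and 5.10 CPM (1.09, adjusted p = 0.206). Both were separate between groups, Top2a by a small margin.

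Interferon-stimulated genes had a median of -0.36, with 37 of 38 below 0 and 13 without overlap downward (34.2%, against 10.7% of all genes). An unadjusted p under 0.05 was found for 20, DESeq2 called 3 and limma-voom 0. Gbp4, a guanylate-binding protein of interferon responses, stood at 14.5, 18.3 and 12.8 against 67.2, 31.1 and 21.3 CPM (log2 fold change -1.39, adjusted p = 0.0888). Western diet nonpregnant replicate 1 was the highest by far, and without it the list median was -0.19. Clock genes had a median of -0.23, with 15 of 20 below 0. Groups did not overlap downward for 7 (35%, against 10.7% of all genes) and upward for 0. An unadjusted p under 0.05 was found for 9 clock genes, DESeq2 called 1 and limma-voom 0. The clock output gene Dbp stood at 53.6, 105 and 94.8 against 156, 129 and 119 CPM (-0.68, adjusted p = 0.176). The labels give no hour of collection.

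Fat synthesis genes showed how far replicate 3 can carry a value. Scd1, the desaturase that makes monounsaturated fatty acids, stood at 17.2, 18.0 and 193 CPM in postpartum and 10.0, 11.2 and 13.8 CPM in Western diet hearts (log2 fold change 2.71, adjusted p = 0.108). Fatty acid synthase (Fasn) stood at 28.4, 24.7 and 209 against 19.9, 21.7 and 24 CPM (2.0, adjusted p = 0.15). Only the library that held the fat genes was far above the others. The part of fat RNA in these values was not tested. White adipocyte markers, 11 of 15 past the filter, had a median log2 fold change of 1.77, with 6 above 0 and 5 below. At an unadjusted p under 0.05, 6 were higher and 2 lower. None was called, while DESeq2 called 2 (1 higher, 1 lower) and limma-voom 0. Groups did not overlap upward for 1 and downward for 1 (9.09% each, against 10.8% and 10.7% of all genes). The summed level of these markers was 813.6 to 1088 CPM in postpartum and 904.5 to 1101 CPM in Western diet hearts. The 28 sterol and fatty acid synthesis genes had a median of 0.15, and none was called (10 with unadjusted p under 0.05, 0 by DESeq2 and limma-voom). The other functional lists had no called member and medians from -0.004 to 0.08. Between 0 and 8 of their members had an unadjusted p under 0.05, DESeq2 called 0 to 2 and limma-voom 0. They covered the unfolded protein response, heat shock, antioxidant, cytokine, hormone receptor and ribosome biogenesis genes. Of the 26 ribosome biogenesis genes, 19 were above 0, and 8 had an unadjusted p under 0.05 (7 higher, 1 lower). Groups did not overlap upward for 8 of them (30.8%, against 10.8% of all genes) and downward for 3 (11.5%, against 10.7%).

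The groups not compared here, Western diet postpartum and control diet nonpregnant, share no library with the comparison, though they share its estimate of spread. They differ in both diet and pregnancy, and 406 genes (2.62%) were called between them, 224 higher (1.45%) and 182 lower (1.18%) in Western diet postpartum hearts. Of the 44 genes higher in control diet postpartum hearts, 36 (81.8%) were above 0 there, and of the 46 lower ones 31 (67.4%), against 49.6% of all genes. The medians were 0.20 and 0.20, and among the 44 there were 2 called higher and 4 lower, among the 46 there were 9 higher and 3 lower. The 2 higher genes were Thbs1 and Tnc. Among the 46, those called higher there included Acot1 at 1.81 (adjusted p = 0.00439), Scn4b at 0.61 (adjusted p = 0.0182) and Pex11a at 0.58 (adjusted p = 0.00202). Among the 44, Lgi3 was called lower there, at -1.17 (adjusted p = 0.00747). These 4 genes thus had opposite signs in the 2 comparisons.

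**Figure D4:**
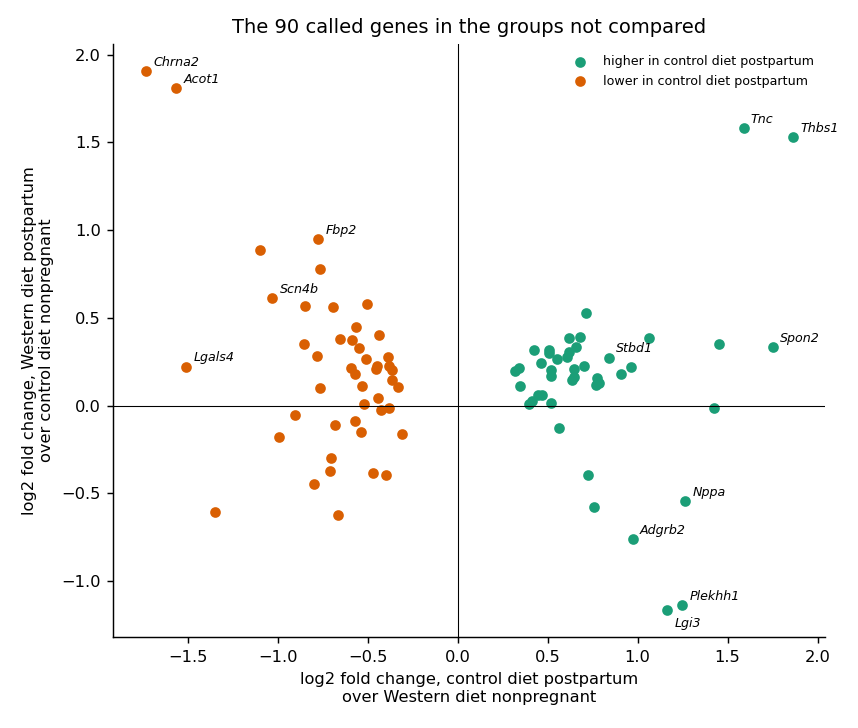
Log2 fold change of the 90 called genes, control diet postpartum over Western diet nonpregnant (x axis) against Western diet postpartum over control diet nonpregnant (y axis). Thbs1 and Tnc lie at the upper right, Acot1, Chrna2 and Scn4b at the upper left, and Nppa and Lgi3 at the lower right.

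Against the control diet nonpregnant group, which both comparisons use, pregnancy on the control diet gave 37 calls (0.239%) and the Western diet without pregnancy 9 (0.0582%). Each shares its libraries with the comparison reported, so the values are set side by side only. For matrix genes the list median was 0.50 for pregnancy and 0.12 for diet. For fatty acid oxidation genes it was -0.08 for pregnancy and 0.19 for diet, and for interferon-stimulated genes 0.15 and 0.50. For cell cycle genes it was 0.79 and 0.25.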

How the data were processed

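RNA of 12 mouse heart libraries (RNeasy, NEBNext Ultra, per the labels) was counted by the authors with FastQC, STAR 2.5.2b and featureCounts (Subread 1.5.2) on GRCm38 (mm10), per the submitters' processing notes. The deposited files hold unnormalized whole read counts for each gene. Which annotation release and strand setting were used is not given in the sources used here. The reads were lost, per the series text. Of 49315 genes, 345 had no symbol in the annotation used here. In R 4.3.3, edgeR 4.0.16 (filterByExpr, minimum count 10 and total 15, TMM, 1 quasi-likelihood model of all 12 libraries with group means, two-sided F test) was used, with limma 3.58.1 and DESeq2 1.42.0 as alternatives. The biological coefficient of variation was 9.62%. No library pair within a group agreed within sampling noise (chi-square per degree of freedom at least 4.02).

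The genes compared and the gene lists were chosen with earlier results of these data known. The rule for named genes takes the 12 higher and 12 lower with the smallest p that passed the threshold without overlap, up to 4 called members of each functional list, and 20 genes followed whatever their result. All other genes named, such as Gbp4, Scd1, Fasn, Ccnd1, Top2a, Gja1, Ccr2, Acot2, Cd68, Scn4a and Aldh1a1, were chosen after their values were seen. Of the genes of the rule, some are not reported here, though they stayed in all tests and counts. On simulated data of this comparison, with 15275 genes tested, edgeR recovered 40 of 67 genes changed 1.5-fold, 50 of 67 changed 2-fold and 59 of 66 changed 4-fold, with 7 calls among 15077 unchanged genes. The simulated libraries were drawn independently from the fitted spread, and none was made to stand apart. Their numbers therefore do not cover the dependence of the real calls on single libraries. Counts of 0 and intervals of counting error take no account of duplicates, since reads carry no molecular identifiers.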

Additional observations from a re-analysis of the deposited data

How the results depend on the processing

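Of 16 alternatives, 14 were planned, 6 of them leaving out 1 library, and 2 were added after the data were seen. No value of a named gene reversed as a called difference. With no filter on low counts, calls numbered 975 (492 higher, 483 lower), with 28 matrix and 25 fatty acid genes, and 744, 454 and 1315 genes for pregnancy on the control diet, diet without pregnancy and Western diet postpartum, each against control diet nonpregnant hearts. A fit of only the groups compared gave 159 (68 higher, 91 lower), 9 fatty acid genes, and 6, 0 and 136 for those 3. DESeq2 gave 319 (141 higher, 178 lower), 20 matrix and 9 fatty acid genes, and 184, 95 and 779. A filter of 1 CPM gave 5 for diet without pregnancy. Added after the data were seen, leaving out control diet nonpregnant replicate 1 and Western diet postpartum replicate 2 gave 315 (148 higher, 167 lower), with 17 matrix and 11 fatty acid genes. Leaving out control diet postpartum replicate 3 and Western diet nonpregnant replicate 1 gave 17 (5 higher, 12 lower), with 1 of each. Leaving out 1 library gave 9 to 83 calls, 4 to 40 higher and 4 to 43 lower, 0 to 10 matrix and 0 to 3 fatty acid genes, and 0 to 205, 0 to 4 and 87 to 764 for the other 3 comparisons; the cause was not tested. Of 766 values of named genes, 625 kept their side of the threshold, 112 lost it, 26 gained it and 3, near 0 or uncalled, moved. DESeq2 size factors, edgeR's robust option, limma-voom and library sizes without mitochondrial genes gave main counts within 1.5 times. No paired analysis was possible because the labels give the groups no shared replicate numbers. Genes near 0.102 to 0.131 CPM, the level that a count of 0 allows, could not be compared at this depth.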
